A study of Mus musculus with 2 samples.

Results

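The strongest chromatin boundaries of mature olfactory sensory neurons were described here, namely every interval of the deposited boundary list with a score of 2 or more. There were 279 of them among 8058 boundaries (3.46%), and all belonged to the class that the list calls Strong, of which they made up 6.82%. The boundaries were chosen by the authors' score, so their scores are a description and no test was made on them. Scores ran from 2.00 to 4.32 with a median of 2.29 (interquartile range 2.13 to 2.54), against a median of 0.490 for the remaining boundaries. Of the 279, 200 scored from 2 to 2.5, 64 from 2.5 to 3, and 15 scored 3 or more.

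The cells were mature olfactory sensory neurons of adult mice of the strain 129P2/OlaHsd, of mixed sex and without treatment, sorted by FACS from the olfactory epithelium on the OMP-GFP reporter. The reporter follows the olfactory marker protein gene, and what else the sorted gate held cannot be checked from a list of boundaries. In situ Hi-C with the restriction enzyme DpnII was made on 3000000 cells for replicate 1 and 1500000 cells for replicate 2, fixed in 1% formaldehyde. Both replicates form 1 group, and the boundaries were called on their pooled map, so no value below has a spread between replicates. Contact depth is unknown here.

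Hi-C measures how often pieces of chromatin lie close together in the nucleus. A boundary is a place across which contacts are depleted, so that the chromatin on either side folds into separate contact domains. Cohesin extrudes loops of chromatin and is stalled by CTCF, a zinc finger protein whose binding motif has a direction, and active gene promoters are also often found at such borders. Olfactory sensory neurons each express a single olfactory receptor gene, and their receptor gene clusters are known to gather in heterochromatin.

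The sequences below show CTCF core matches at the strongest boundaries that had one in their own 5 kb bin or an adjacent bin, since the direction of such matches is described next. They were read from the GRCm38 reference genome, which is of another mouse strain, on the strand of the match, 5′ to 3′. Capitals mark the 14 bases of the core and lower case marks 8 flanking bases on each side. Each is named by the gene with the nearest coding transcription start site (TSS). Immunoglobulin segments were not counted as coding genes. The TSS of Zfp386 thus lies 215 kb from its boundary (4.32), in whose bin the segment Ighv1-75 begins.
Zfp386, chr12:115837896-115837909, minus strand: gctcatgaCCAGCAGATGGCACaatgagga
Gm527, chr12:64897537-64897550, minus strand: ctgctaagCCACTAGGTGGCAGtgcagtac
Selenow, chr7:15912347-15912360, minus strand: tgtgaaggCCACTAGGGGGCAGcagagatt
Gm6793, chr8:112046081-112046094, plus strand: gaagatggCCACTAGGTGGCACtgttgcac
Plcg2, chr8:117475139-117475152, minus strand: tgatctggCCACCAGGGGGCAGcagagact
Gm37419, chr16:23984363-23984376, plus strand: gtgacctaCCACTAGGTGGCGGactcagtc
Psmd7, chr8:107603211-107603224, plus strand: aggtatttCCAGCAGAGGGCGCcatctgac
Cenpc1, chr5:85992271-85992284, minus strand: ttacatggCCAGTAGGTGGCACtccaatct
4930444G20Rik, chr10:22010319-22010332, minus strand: cggtacaaCCACCAGATGGCAGcacgaacc
Ipmk, chr10:71430846-71430859, plus strand: aattctctCCAGCAGAGGGCAGacctgtct

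Of these 10 matches, 7 pointed away from the centre of their boundary and those at Zfp386, Selenow and Gm6793 pointed toward it. A match points away when it lies on the plus strand to the right of the centre or on the minus strand to its left. The match at Psmd7, a proteasome lid subunit gene, lay 5.72 kb to the right of the centre of a boundary of score 2.64 (chromosome 8 at 107595001 to 107600000). The match at Gm37419 lay 1.87 kb to the right of the centre of a boundary inside an intron of Bcl6, the gene of a transcriptional repressor (score 2.64, chromosome 16 at 23980001 to 23985000). Among all 121 matches within 20 kb of the strongest boundaries there were 46 different cores. CCAGCAGAGGGCAG was found 9 times (7.44%, against 106 of 2028 or 5.23% near the remaining boundaries), and CCAGCAGGGGGCAG 8 times (6.61%, against 69 or 3.40%).

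CTCF core matches lay near the strongest boundaries more often than near the others. A match lay within 20 kb of 98 of the 279 (35.1%, 95% exact Clopper-Pearson interval 29.5 to 41.0%) and of 1665 of 7773 remaining boundaries (21.4%, 20.5 to 22.3%). The difference was 13.7 percentage points (95% Newcombe interval 8.26 to 19.5). In the boundary's own bin a match was found at 28 of the strongest boundaries (10.04%) and at 276 of the remaining ones (3.55%), a difference of 6.49 points (3.45 to 10.6). Of these 28 boundaries, 24 scored from 2 to 2.5. Intervals cover the counting of boundaries only, and boundaries of 1 map are not biological replicates. For these shares 6 remaining boundaries in bins with undetermined bases were left out.

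The remaining boundaries of the Strong class were the nearer comparison. Of these 3809 boundaries 29.9% had a match at most 20 kb away, and the difference of the strongest from them was 5.20 points with an interval that includes 0 (-0.367 to 11.1). In the own bin the difference from them was 5.02 points (1.93 to 9.16). That share was 2.14% from 0.2 to 0.5, 4.81% from 0.5 to 1, 5.33% from 1 to 1.5, 5.35% from 1.5 to 2, 12% from 2 to 2.5 and 6.25% from 2.5 to 3. At 3 or more it was 0 of 15, which allows a share of up to 20%. By score, the share with a match within 20 kb was 13.2% from 0.2 to 0.5, 28.1% from 0.5 to 1, 32.4% from 1 to 1.5, 33.6% from 1.5 to 2 and 38.5% from 2 to 2.5. It was then 29.7% from 2.5 to 3 and 13.3% at 3 or more, which is 2 of 15 boundaries. With a threshold of 2.5 the difference from all remaining boundaries was 4.73 points (-3.81 to 15.4), and with a relaxed core, found within 20 kb of 93.9% of the strongest and 86.2% of the remaining boundaries, it was 7.71 points.

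Core matches within 20 kb pointed away from the boundary in 71.9% of 121 cases at the strongest boundaries and in 67.1% of 2028 at the remaining ones, a difference of 4.84 points with an interval that includes 0 (-3.98 to 12.4). At 5 to 20 kb the shares were 69.9% (65 of 93) at the strongest boundaries and 69.5% (1210 of 1741) at the remaining ones, with a difference of 0.392 points (-9.79 to 9.06). A split by distance, made after the data had been examined, gave a difference for matches in the boundary bin itself. Of the 28 there at the strongest boundaries, 22 pointed away (78.6%, 59.0 to 91.7%), against 150 of 287 at the remaining ones (52.3%, 46.3 to 58.2%). That difference was 26.3 points (7.32 to 38.9), and 23.6 points against the remaining Strong boundaries (4.25 to 36.8). It rests on few matches, 4 of them at boundaries scoring 2.5 or more, and with that threshold its interval includes 0 (-24.6 to 41.8).

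**Figure D1:**
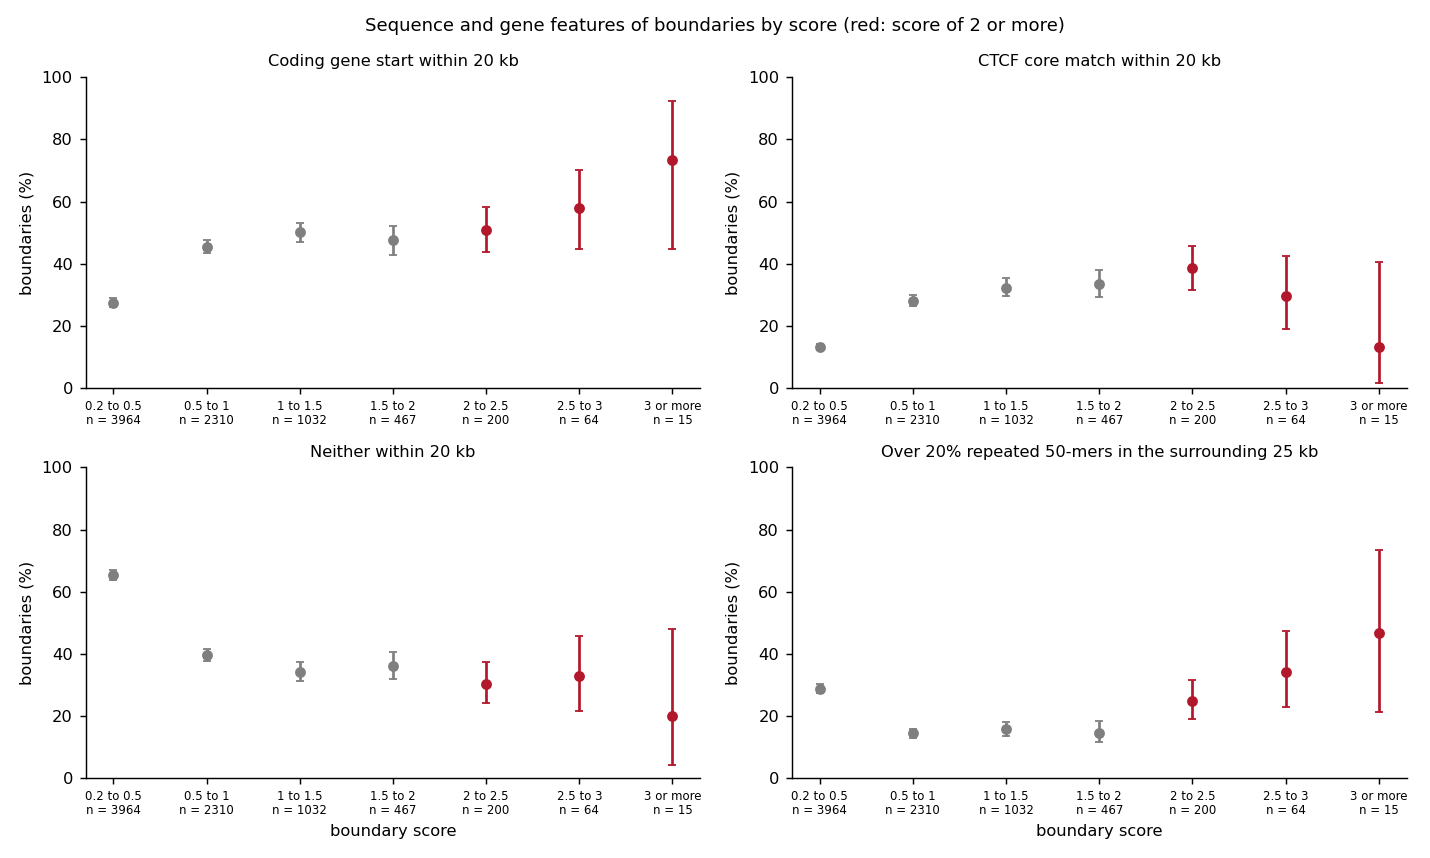
Share of boundaries (%) by score with a coding gene start within 20 kb, a CTCF core match within 20 kb, neither of these, or over 20% repeated 50-mers in the surrounding 25 kb. Points are shares, bars are 95% exact binomial intervals, and red marks scores of 2 or more; the share with a coding gene start was 51.0%, 57.8% and 73.3% in the red bands, and the share with repeats 25.0%, 34.4% and 46.7%.

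Coding genes began within 20 kb of the strongest boundaries more often than near all remaining ones, but in the boundary bin itself at a similar share. For 150 of the 279 the nearest coding TSS was at most 20 kb away (53.8%, 47.7 to 59.7%), as for 2879 remaining boundaries (37.0%, 36.0 to 38.1%), a difference of 16.7 points (10.8 to 22.6). The TSS shared the boundary bin at 18 of the strongest (6.45%) and at 584 of the remaining boundaries (7.51%), a difference of -1.06 points (-3.47 to 2.499). At 5 to 20 kb the nearest TSS was found for 132 of the strongest boundaries (47.3%) and 29.5% of the remaining ones, a difference of 17.8 points (11.9 to 23.7). Against the remaining Strong boundaries the difference within 20 kb was 6.74 points (0.670 to 12.7) and in the own bin -3.18 points (-5.71 to 0.444). Both of these depend on the start used. With the starts of all transcripts of coding genes the first was 2.27 points (-3.76 to 8.02), and for a TSS in the bin or the adjacent bin 1.16 points (-3.74 to 6.70). In the own bin a start of any such transcript was found at 10.04% of the strongest and 16.0% of the remaining Strong boundaries. That difference was -5.93 points (-9.16 to -1.69). Within 10 kb the difference from all remaining boundaries was 6.86 points (1.51 to 12.7).

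Every distance above 0 counts a bin on either side, so the shares by distance are not per bin. Among them the distance of 5 kb held the highest share. An adjacent bin held the nearest coding TSS at 18.3% of the strongest boundaries and 11.2% of the remaining ones. Per 100 bins, the strongest boundaries had 7.53 coding starts in the boundary bin and 11.5 in the next bin on either side. The remaining boundaries had 8.54 in the boundary bin, and 7.30 on the left and 6.94 on the right at 5 kb. The nearest coding TSS was at 15 kb for 11.8% of the strongest and 5.6% of the remaining boundaries. It was at 20 kb for 9.0% of the strongest and 5.3% of the remaining ones. A single coding TSS lay within 20 kb at 101 of the strongest boundaries (36.2%, against 24.0% of the remaining ones). At least 3 lay there at 7 of them (2.51%, against 4.19%). Where the nearest TSS was 5 to 20 kb away, the gene was transcribed away from the boundary in 81 of 132 cases (61.4%), against 54.0% at the remaining boundaries, and the interval of that difference of 7.38 points includes 0 (-1.38 to 15.5).

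**Figure D2:**
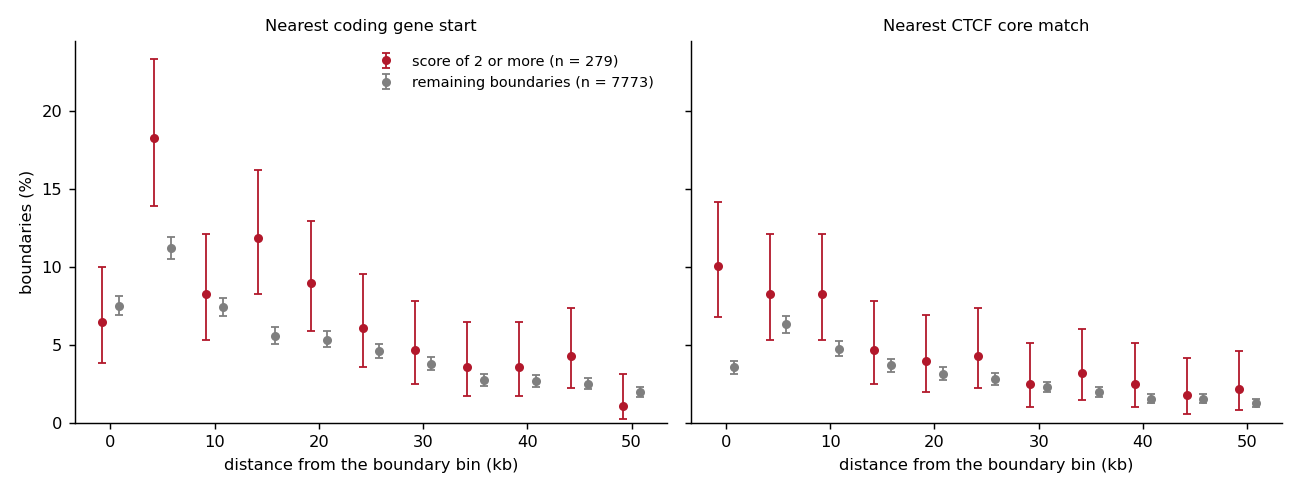
Share of boundaries (%) by the distance in kb from the boundary bin to the nearest coding gene start (left) and to the nearest CTCF core match (right), with 95% exact binomial intervals. Red points are the boundaries with a score of 2 or more and grey points the remaining ones. Each distance above 0 kb pools a bin on the left and a bin on the right, and 0 kb is the boundary bin alone. On this count coding starts stood highest at 5 kb (18.3% and 11.2%) and CTCF matches of the strongest boundaries at 0 kb (10.04%, against 3.55%).

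Neither a coding TSS nor a CTCF match lay within 20 kb of 85 of the strongest boundaries (30.5%, 25.1 to 36.2%), against 51.9% of the remaining ones, a difference of -21.4 points (-26.6 to -15.7). Both lay there at 54 of the strongest (19.4%, against 10.3%), a TSS alone at 96 (34.4%, against 26.7%) and a match alone at 44 (15.8%, against 11.1%). From the remaining Strong boundaries the differences were smaller, at -7.31 points for neither (-12.6 to -1.47) and 4.63 points for both (0.262 to 9.78). For a TSS alone it was 2.12 points (-3.42 to 8.05) and for a match alone 0.570 points (-3.42 to 5.43), with intervals that include 0. The median score of these 4 kinds was 2.28 with neither, 2.27 with both, 2.35 with a TSS alone and 2.28 with a match alone. The kinds differed in repeats. Over 20% of the 50-mers in the surrounding 25 kb occurred elsewhere in the genome at 44 of the 85 boundaries with neither feature (51.8%), at 4 of the 54 with both (7.41%), at 23 of the 96 with a TSS alone (24.0%) and at 8 of the 44 with a match alone (18.2%).

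Some 206 of the 21755 coding genes, which is 0.947%, had their TSS within 20 kb of one of the strongest boundaries, and 426 of 53843 annotated genes of any kind (0.791%). Genes in the protein-making and energy machinery were among them, and they also lay near the remaining boundaries. There, 39 of 84 cytosolic ribosomal protein genes and 40 of 94 respiratory chain and ATP synthase genes lay within 20 kb. The counts there were 27 of 67 for translation factors and 9 of 39 for proteasome subunits, and for olfactory receptor genes 122 of 1135. Of all 21755 coding genes, 4403 lay near the remaining but not the strongest boundaries. Near the strongest boundaries, cytosolic ribosomal protein genes numbered 4 of 84 (4.76%, exact interval 1.31 to 11.7%), each at its own boundary. These were Rps23 (score 3.03, 5 kb away), Rps24 (2.74, 5 kb), Rps15a (2.42, 20 kb) and Rps3 (2.02, 5 kb). All encode proteins of the small ribosomal subunit. That ribosomal protein genes lie near boundaries was known from this list before, so it is no independent evidence.

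Proteasome subunit genes near the strongest boundaries numbered 3 of 39 (7.69%, 1.62 to 20.9%), namely Psmd7 (2.64, 10 kb away), Psmc1 (2.34, 5 kb) and Psmd6 (2.25, 5 kb). Genes with symbols of translation initiation and elongation factors numbered 2 of 67 (2.99%). Eif1 (3.26, in the bin) acts in start codon recognition. Eif4enif1 (3.94, 5 kb) was counted by its symbol, but its product carries the cap-binding factor into the nucleus and is not itself such a factor. Respiratory chain and ATP synthase genes numbered 3 of 94 (3.19%), with Uqcrc2, a complex III core protein gene (2.88, 10 kb), and 2 gene records of Atp5o at 1 boundary (2.08). Mitochondrial ribosomal proteins had 1 of 77 (1.30%, Mrps14 at 2.29) and spliceosome proteins 1 of 61 (1.64%, Sf3b5 at 2.05). Lists of this size give wide intervals, and those of the last 4 lists include the 0.947% of all coding genes.

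Olfactory receptor genes numbered 14 of 1135 (1.23%, 0.676 to 2.06%), at 9 boundaries, near the share of all coding genes. The strongest of these boundaries lay 5 kb from Olfr986 (3.07), 5 kb from Olfr220 (2.85), 15 kb from Olfr1423 (2.82) and 5 kb from Olfr543 (2.67), which shared its boundary with Olfr544 and Olfr545. Vomeronasal receptor genes, which detect pheromones in another sensory organ, numbered 4 of 329 (1.22%), led by Vmn1r4 (2.46, 15 kb). Zinc finger genes with a Zfp symbol numbered 6 of 424 (1.42%), led by Zfp984 (3.17, 5 kb) and Zfp202 (3.07, 15 kb). Cytochrome P450 genes numbered 2 of 100 (2.00%), of which Cyp2f2 had its TSS in the bin of a boundary of 2.09 and Cyp2c55 lay 15 kb from one of 2.49. No histone gene of 67 and no Hox gene of 39 lay near one of the strongest boundaries, which allows shares of up to 4.48% and 7.69%.

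Genes of mature olfactory neuron function numbered 2 of 22 (9.09%, 1.12 to 29.2%). Slc17a6 encodes the vesicular glutamate transporter of these neurons (2.68, 20 kb away) and Gnal the G protein subunit that couples receptors to the cyclase (2.31, 15 kb). Regulators of receptor choice and nuclear architecture numbered 2 of 25 (8%, 0.984 to 26.03%), namely the transcription factor genes Ebf3 (2.61, 15 kb) and Emx2 (2.35, 10 kb). Each of these lists rests on 2 genes, and the share of all coding genes was 0.947% (206 of 21755). Near the remaining boundaries the same lists had 2 of 22 and 4 of 25 genes. Of all 21755 coding genes, 4403 lay near the remaining but not the strongest boundaries. Whether these lists favour the strongest boundaries was not tested. None of 18 axon guidance and adhesion genes and none of 18 genes of immature neurons and progenitors lay near the strongest boundaries. The same held for 18 genes of other epithelial and blood cells. Such a count allows up to 16.7% in each list. Near the remaining boundaries these lists had 9, 4 and 7 of 18 genes. Coding genes near the strongest boundaries had a median length of 17.9 kb, against 16.0 kb near the remaining boundaries and 17.8 kb for genes near none.

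The highest scores with a coding TSS in the bin or the adjacent bin belonged to boundaries at genes of varied function. The boundary of 3.94 lay in an intron of Drg1 and 5 kb from the TSS of Sfi1, a centrosome protein gene (chromosome 11 at 3195001 to 3200000). A boundary of 3.35 covered an exon and UTR of Pdcl, a phosducin-like gene whose product helps fold G protein subunits (chromosome 2 at 37350001 to 37355000). That of AW209491 (3.23, chromosome 13 at 14635001 to 14640000) also covered part of Psma2, a proteasome gene. Trrap, which encodes an adaptor of histone acetyltransferase complexes, had its TSS in the bin of a boundary of 3.22 (chromosome 5 at 144765001 to 144770000).

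The other boundaries of this kind scored from 2.41 to 3.17. Polr3a, the gene of the largest subunit of RNA polymerase III, lay 5 kb from a boundary of 2.74, with Rps24 also beginning 5 kb away (chromosome 14 at 24480001 to 24485000). Krr1, needed for making the small ribosomal subunit, lay 5 kb from one of 2.43, and Ppp6c, a protein phosphatase subunit gene, 5 kb from one of 2.57. Fat4, an atypical cadherin gene, lay 5 kb from a boundary of 2.53, and Fstl5 5 kb from one of 3.05. Rxylt1, which acts in the glycosylation of dystroglycan, lay 5 kb from one of 2.86, and Fadd, the adaptor of death receptors, 5 kb from one of 2.41 that covered an exon and UTR of Ano1. Mup4, a major urinary protein gene, and Psg16, a pregnancy-specific glycoprotein gene, lay 5 kb from boundaries of 2.42 and 2.51. The remaining genes of this set, Ankrd60, 9530068E07Rik, Yipf5, Ankrd7 and Zfp407, had boundaries from 2.48 to 2.73, each 5 kb away.

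Promoters of the genes that begin in the bins of the strongest boundaries are shown for Eif1, Rab12, a small GTPase gene, and Kifap3, a gene of a kinesin-associated protein, to give the sequence found there. Trrap (3.22), Grm4 (2.32) and Olfr412 (2.31) also begin in bins of boundaries that scored above that of Kifap3 (2.23). Their promoters are not shown. The letters are the 250 bases before the annotated start in RefSeq on GRCm38.p6, on the strand of the gene and 5′ to 3′, and capitals mark a CCAAT box in Eif1 and Kifap3 and an SP-type GGGCGGG box in Rab12.
Eif1, chr11:100319699-100319948, plus strand: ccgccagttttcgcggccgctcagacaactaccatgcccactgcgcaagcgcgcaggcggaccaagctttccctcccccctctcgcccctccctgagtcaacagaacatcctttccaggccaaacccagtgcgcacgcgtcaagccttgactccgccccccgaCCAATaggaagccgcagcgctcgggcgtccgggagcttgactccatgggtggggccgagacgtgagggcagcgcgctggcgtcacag
Rab12, chr17:66519671-66519920, minus strand: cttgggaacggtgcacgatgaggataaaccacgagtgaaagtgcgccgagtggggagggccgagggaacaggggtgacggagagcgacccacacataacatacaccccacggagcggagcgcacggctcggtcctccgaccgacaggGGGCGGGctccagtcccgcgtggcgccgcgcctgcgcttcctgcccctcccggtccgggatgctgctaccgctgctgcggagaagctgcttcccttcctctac
Kifap3, chr1:163779333-163779582, plus strand: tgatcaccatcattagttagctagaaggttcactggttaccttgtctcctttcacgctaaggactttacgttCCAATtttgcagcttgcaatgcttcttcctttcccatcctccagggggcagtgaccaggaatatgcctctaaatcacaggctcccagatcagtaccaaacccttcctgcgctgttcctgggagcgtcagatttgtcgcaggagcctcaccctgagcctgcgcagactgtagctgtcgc

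The printed stretches held 24 CpG dinucleotides at Eif1, 26 at Rab12 and 7 at Kifap3. The GENCODE starts used for distances lie inside the stretches of Eif1 (100319885) and Rab12 (66519729). Those 2 stretches and their CpG counts thus include bases past these starts. Promoters of 300 bases (250 before and 50 after the start) were matched for 138 of the 206 coding genes near the strongest boundaries and for 14239 of all 21755. At least 10 CpG dinucleotides stood in 73.2% of promoters near the strongest boundaries, in 71.4% near the remaining ones and in 62.1% near none. The ETS-type motif CCGGAAG, on either strand, was in 18.1% near the strongest boundaries, 17.5% near the remaining ones, 12.2% near none and 13.4% of all promoters. TATAAA was in 6.52% near the strongest boundaries, 9.32% near the remaining ones, 11.8% near none and 11.2% of all promoters. GGGCGGG was in 36.2% near the strongest and 39.9% near the remaining boundaries (38.1% of all), and CCAAT in 38.4% near the strongest and 37.8% near the remaining ones (38.9% of all). ACTACAATT, part of the motif of ZNF143, was in 0 of the 138, which allows a share of up to 2.17%, and in 0.530% of promoters near the remaining boundaries, 0.577% of those near none and 0.562% of all. The intervals of the shares near the strongest and the remaining boundaries overlapped for each of these motifs, and the searched motifs do not contain one another.

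Genes often lay on a single side of the strongest boundaries. At 63 of the 279 (22.6%, 17.8 to 27.9%) there was no coding TSS in the 250 kb on one side and at least 3 in the 250 kb on the other. The same held for 549 of the remaining boundaries (7.06%, 6.503 to 7.65%), a difference of 15.5 points (10.96 to 20.8). Against the remaining Strong boundaries, of which 9.87% had this layout, the difference was 12.7 points (8.09 to 18.05). This measure was chosen after the data had been examined. Stretches with no coding TSS within 250 kb on either side were rare among the strongest boundaries, at 8 (2.87%, against 18.6% of the remaining and 6.22% of the remaining Strong boundaries).

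Some examples of uneven flanks were named after their values were seen. Others, among them some with 7, 8 or 9 coding starts on a single side, are not named. The highest count among boundaries with genes on 1 side only was at the boundary 10 kb from the TSS of Atp23 (score 2.31, chromosome 10 at 126890001 to 126895000) with 0 coding starts on its left and 12 on its right. The boundary near Gm5849 (2.73) had 11 on its left and 0 on its right. That near Slc4a3, an anion exchanger gene (2.29, chromosome 1 at 75610001 to 75615000), had 10 on its left and 0 on its right. The boundary inside Cdc5l, a splicing factor gene (2.06, chromosome 17 at 45390001 to 45395000), had 0 and 10. That in the bin where Grm4, a metabotropic glutamate receptor gene, begins (2.32, chromosome 17 at 27520001 to 27525000) had 0 and 7. The second strongest boundary, in the cold receptor gene Trpm8 (4.13), had coding starts on both sides, 13 on its left and 2 on its right.

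**Figure D3:**
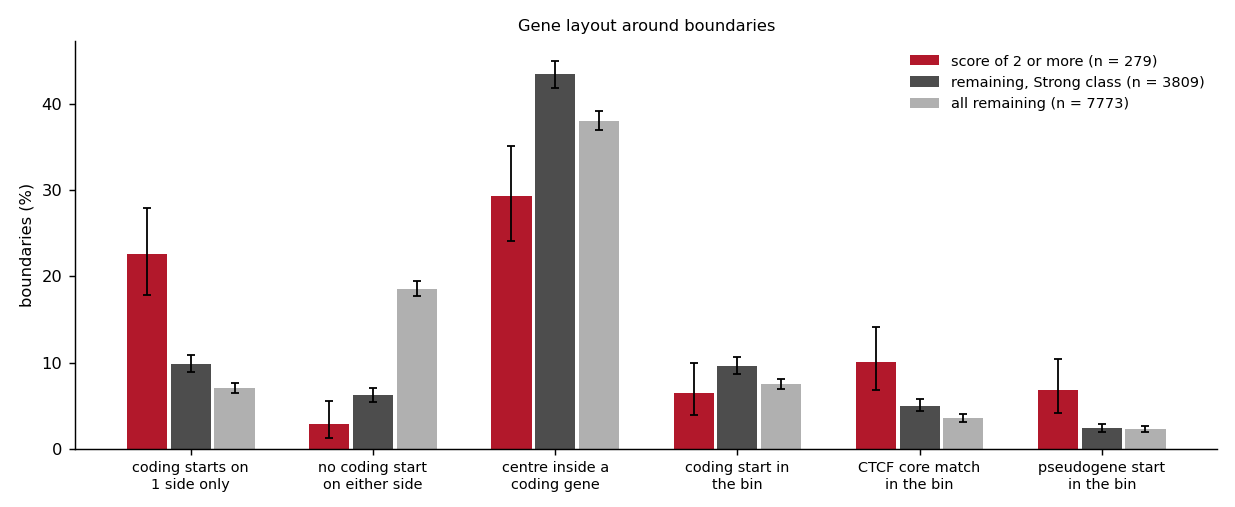
Share of boundaries (%) with coding starts on 1 side only (at least 3 within 250 kb on one side and none on the other), no coding start within 250 kb on either side, the centre inside a coding gene, and a coding start, CTCF core match or pseudogene start in the boundary bin. Bars are the strongest boundaries (red), the remaining Strong boundaries (dark grey) and all remaining boundaries (light grey), with 95% exact binomial intervals; coding starts on 1 side only were found at 22.6%, 9.87% and 7.06%.

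The strongest boundaries lay inside coding genes less often than the remaining ones as a whole, and about as often as those scoring from 1.5 to 2. The centre was inside a coding gene at 82 of the 279 (29.4%, 24.1 to 35.1%), against 38.1% of the remaining (difference -8.70 points, -13.9 to -3.004) and 43.4% of the remaining Strong boundaries (difference -14.1 points, -19.3 to -8.25). By score the share was 32.9% from 0.2 to 0.5, 47.4% from 0.5 to 1, 40.5% from 1 to 1.5, 30.4% from 1.5 to 2, 29% from 2 to 2.5, 29.7% from 2.5 to 3 and 33.3% at 3 or more. With a threshold of 2.5 the difference from the remaining boundaries was -7.49 points, with an interval that includes 0 (-16.6 to 3.42). The bin touched no coding gene at 64.9% of the strongest boundaries, against 56.4% of the remaining ones. It held intron sequence alone at 24 of the strongest (8.60%, against 13.7%), exon sequence without UTR at 25 (8.96%, against 10.2%), and exon and UTR at 49 (17.6%, against 19.6%). Where the centre lay between 2 coding genes, these were divergent at 61 of 195 of the strongest boundaries (31.3%, against 30.6%), convergent at 37 (19.0%, against 18.1%) and in tandem at 97 (49.7%, against 51.3%). The difference for divergent pairs was 0.689 points (-5.54 to 7.63).

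A few of the strongest boundaries lay far from any coding start. The boundary of 3.14 in an intron of Dlg2, a postsynaptic scaffold gene, was 480 kb from the nearest coding TSS (chromosome 7 at 92080001 to 92085000). The boundary near Kcnj2, a potassium channel gene, was 470 kb away (2.14, chromosome 11 at 111535001 to 111540000), and that near Galnt17 450 kb (2.13, chromosome 5 at 130855001 to 130860000). Both had a CTCF core match in their own bin. The boundary near Galr1, a galanin receptor gene, was 470 kb away (2.18) with a match at 10 kb, and that near Rapgef2 355 kb (2.15) with none nearer than 655 kb.

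Other kinds of genes were counted in the same way. A pseudogene began in the boundary bin at 19 of the strongest boundaries (6.81%, 4.15 to 10.4%) and at 2.26% of the remaining ones, a difference of 4.55 points (2.11 to 8.14), and 4.45 points against the remaining Strong boundaries (1.98 to 8.05). Of these 19, 12 were annotated as processed pseudogenes, which derive from copied transcripts, among them Fau-ps2 at the boundary of 3.94 near Sfi1 and Ass-ps1 at one of 2.96. Within 20 kb a pseudogene began at 26.2% of the strongest and 17.8% of the remaining boundaries. Long intergenic RNAs began within 20 kb of 11.1% of the strongest and 8.85% of the remaining boundaries (difference 2.26 points, -0.979 to 6.53), and microRNA genes of 3.94% of the strongest and 3.96% of the remaining ones (difference -0.0198 points, -1.81 to 2.99).

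Mean base composition in the 25 kb around the strongest boundaries lay between that of all remaining and that of the remaining Strong boundaries. GC content averaged 43.6 ± 3.47% around the strongest boundaries (SD, n = 279 boundaries) and 42.8 ± 4.24% around the remaining ones (SD, n = 7773), with 44.1 ± 3.93% around the remaining Strong boundaries (SD, n = 3809). CpG dinucleotides averaged 10.5 ± 4.25 per kb around the strongest boundaries, 9.71 ± 4.35 per kb around the remaining ones and 10.8 ± 4.22 per kb around the remaining Strong ones (SD, same n). The difference of the means from the remaining boundaries was 0.828 percentage points of GC (95% interval 0.410 to 1.25) and 0.797 CpG per kb (0.289 to 1.31). From the remaining Strong boundaries it was -0.442 points (-0.868 to -0.0159) and -0.341 CpG per kb (-0.858 to 0.175), and with a threshold of 2.5 the intervals of both measures against all remaining boundaries include 0. DpnII sites, at which the library was cut, averaged 2.66 ± 0.464 per kb around the strongest boundaries, 2.55 ± 0.467 per kb around the remaining and 2.5 ± 0.439 per kb around the remaining Strong ones (SD, same n). The part of DpnII sites in the other results was not tested.

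GC content differed more between the flanks of the strongest boundaries. The 100 kb on either side differed by a median of 1.65 percentage points (interquartile range 0.735 to 3.06, n = 278), against 1.14 points at the remaining boundaries (0.508 to 2.19, n = 7767) and 1.40 points at the remaining Strong ones. The medians differed by 0.503 points from the remaining (0.283 to 0.750) and by 0.243 points from the remaining Strong boundaries (0.0230 to 0.490). With a threshold of 2.5 the first difference was 0.295 points, with an interval that includes 0 (-0.0860 to 0.732). The largest step lay at Rnf212, a meiotic recombination gene, with 47.7% on the left and 38.6% on the right (score 2.31, chromosome 5 at 108760001 to 108765000). Lactbl1 followed with 43.2% and 51.4% (2.39, chromosome 4 at 136630001 to 136635000), then Vmn2r117 with 39.8% and 47.3% (2.01), Zfp984 with 39.6% and 46.6% (3.17), and Selenow with 43.6% and 50.2% (2.96).

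Repeated sequence was common at both ends of the range of scores. A 50-mer was called repeated when it occurs more than once in the reference, so that short reads there cannot be placed uniquely. Over 20% of the 50-mers in the surrounding 25 kb were repeated at 79 of the strongest boundaries (28.3%, 23.1 to 34.0%), at 22.0% of the remaining and at 14.9% of the remaining Strong ones. The difference from the remaining boundaries was 6.33 points (1.28 to 11.96) and that from the remaining Strong ones 13.4 points (8.33 to 19.1). With a threshold of 1.5 the first of these turned to -2.61 points (-5.48 to 0.549). Soft-masked repeats covered 38.2 ± 15.02% of the 25 kb, against 35.5 ± 14.9% around the remaining and 32.6 ± 13.3% around the remaining Strong boundaries (SD). By score the share with over 20% repeated 50-mers was 28.8% from 0.2 to 0.5, 14.5% from 0.5 to 1, 15.8% from 1 to 1.5, 14.8% from 1.5 to 2, 25.0% from 2 to 2.5, 34.4% from 2.5 to 3 and 46.7% at 3 or more, which is 7 of 15.

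The repeats were unevenly placed around the bin. Mean repeated content was 10.4% in the bins of the strongest boundaries, 11.2% in the next bin on the right and 22.1% in the bin 10 kb to the right, then 12.4% at 15 kb. On the left it was 10.6% at 5 kb, 16.3% at 10 kb and 14.9% at 15 kb. The medians at 10 kb were closer, with 4.84% on the right and 3.63% on the left. The side with the higher mean at 10 kb changed with the score. The right and left means were 19.6% and 15.8% from 2 to 2.5, and 30.6% and 14.5% from 2.5 to 3. At 3 or more, with 15 boundaries, the left was higher (18.9% on the right and 31.25% on the left). The remaining boundaries also stood highest at 10 kb but alike on both sides, with 7.96% in the bin, 16.0% at 10 kb on the right and 15.8% at 10 kb on the left. On the left at 10 kb the groups were thus close to each other. A bin with over 50% repeated 50-mers lay 10 kb to the right of 55 of the strongest boundaries (19.7%, against 13.7%) and 10 kb to the left of 37 (13.3%, against 13.4%). On either side together these were 86 (30.8%, 25.5 to 36.6%), against 25.4% of the remaining and 17.2% of the remaining Strong boundaries. Against the remaining Strong boundaries the difference was 10.4 points (6.07 to 15.6) on the right and 4.34 points (0.724 to 8.90) on the left. How bins of low mappability entered the authors' score was not tested.

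**Figure D4:**
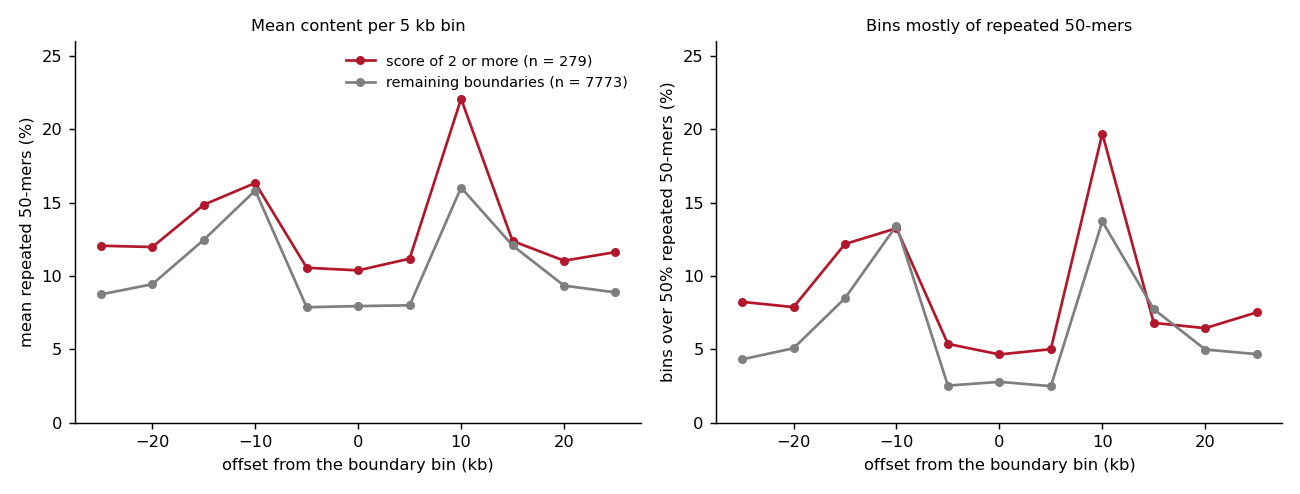
Mean share of repeated 50-mers (%, left) and share of bins with over 50% repeated 50-mers (%, right) in 5 kb bins from 25 kb left to 25 kb right of the boundary bin. Red is the boundaries with a score of 2 or more and grey the remaining ones; both stood highest 10 kb from the boundary, at 22.1% and 16.0% on the right side.

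Single boundaries show how complete these repeats can be. At Pdcl (3.35) 99.8% of the 50-mers were repeated in the bin 10 kb to the left, and 3.23% in the boundary bin. At Kifap3 (2.23) all were repeated, 100%, in the bin 10 kb to the right. At the Dlg2 boundary (3.14) it was 91.7% at 10 kb to the left, and at Rxylt1 (2.86) 92.3% at 10 kb to the right. The highest content over the whole 25 kb was 74.2% near Gm5849 (2.73, chromosome 3 at 90790001 to 90795000), 66.0% near Speer4e (3.10), 62.5% near Gm5662 (2.96), 60.9% in Adgre1, an adhesion receptor gene of macrophages (2.64), and 56.9% near Spin1 (2.37). It was 43.2% to 56.2% near Zfp709 (2.05), Vmn2r7 (2.00), Klra2 (2.77), Kifap3 and Hpcal1 (2.46). The strongest boundary of all, at the immunoglobulin heavy chain segment Ighv1-75 (4.32, chromosome 12 at 115830001 to 115835000), had 37.6%. At Eif1, Rps23, Trrap, Fstl5 and Trpm8, by contrast, the content was 2.10 to 7.34%.

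Several gene and CTCF differences from all remaining boundaries were of like size without these places. Against the remaining Strong boundaries alone, leaving out repeats was not run. Among boundaries with at most 20% repeated 50-mers, 61.5% of the 200 strongest and 42.7% of the remaining ones had a coding TSS at most 20 kb away, a difference of 18.8 points (11.8 to 25.4). A CTCF match lay there at 43.0% of the strongest and 24.9% of the remaining boundaries, a difference of 18.1 points (11.3 to 25.1), and neither feature at 20.5% of the strongest and 44.9% of the remaining ones. Coding starts on 1 side only were found at 23.0% of the strongest and 7.34% of the remaining boundaries. With boundaries that had a bin of over 50% repeated 50-mers within 10 kb left out, an alternative chosen after seeing the data, coding starts on 1 side only differed by 14.4 points (8.93 to 21.0) and divergent pairs by -1.52 points (-9.18 to 7.35).

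The strongest boundaries were spread over all chromosomes but scarce on X. Chromosome X held 3 of them among its 451 boundaries (0.665%), which is 0.0184 per Mb (95% exact Poisson interval 0.00379 to 0.0538). The autosomes held 0.118 ± 0.0241 per Mb (SD, n = 19 chromosomes), from 0.0866 on chromosome 10 to 0.172 on chromosome 19, and 2.68 to 5.49% of their boundaries. The 3 on X lay 65 kb from the TSS of Pbdc1 (2.33), 145 kb from that of 4930578C19Rik (2.15) and 75 kb from that of Lrch2 (2.09), with no CTCF match within 20 kb of any. Chromosome 7 held 24. The labels give mixed sex, and the number of X copies in the pooled cells was not tested.

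**Figure D5:**
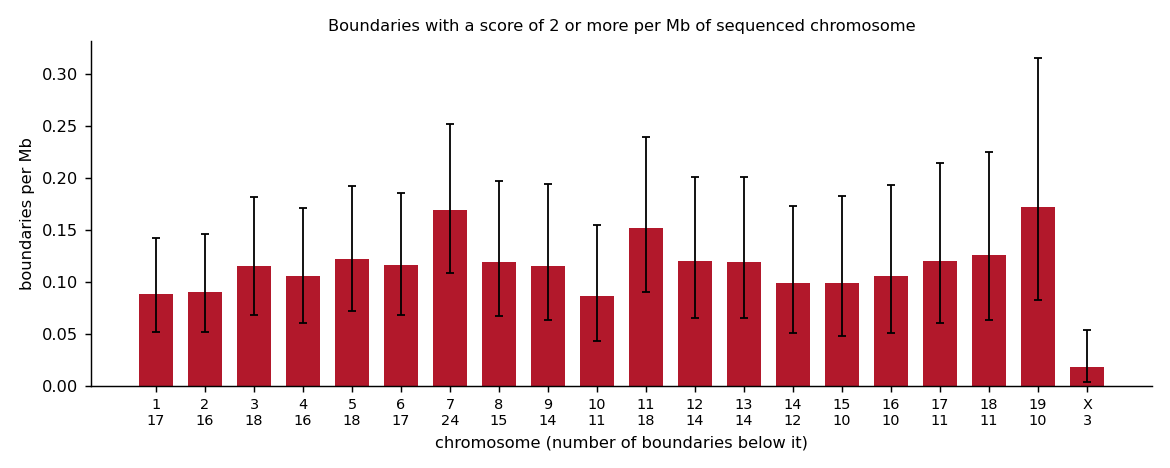
Boundaries with a score of 2 or more per Mb of sequenced chromosome on the vertical axis, by chromosome, with the number of such boundaries under each name and 95% exact Poisson intervals. Chromosome X stands at 0.0184 per Mb, below the autosomes at 0.0866 to 0.172 per Mb.

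The strongest boundaries rarely neighboured one another. Their neighbours in the list lay a median of 310 kb away (interquartile range 206 to 445 kb), against 260 kb for the remaining boundaries (180 to 380 kb), and had a median score of 0.424, against 0.511. Both are descriptions, since the score chose the boundaries. Of 550 neighbours 2 were themselves among the strongest, which is 1 adjacent pair, 225 kb apart on chromosome 3 near 4930579G24Rik (2.00) and Tmem144 (2.08). Successive strongest boundaries along a chromosome lay a median of 6.94 Mb apart, with a maximum of 86.7 Mb, and 10 pairs lay within 1 Mb.

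The threshold of 2 fell between boundaries of nearly equal score. Just inside it lay those at 1110004F10Rik (score 2.00008, in an intron), Vmn2r7 (2.00131, in an intron) and Htr7, a serotonin receptor gene (2.00286, 5 kb from its TSS). Just outside it lay those near Fbxo4 (1.999, 45 kb), Ly6l (1.997, 20 kb) and Foxo3, a forkhead transcription factor gene (1.997, 20 kb).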

How the data were processed

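In situ Hi-C libraries of 2 biological replicates were pooled by the authors into 1 contact map on GRCm38, per the series design text, and boundaries were called on it. The deposited list gives 5 kb intervals with a class and a score, the authors' boundary strength. Its scale, the caller with its window, and the mapper of the reads were not given in the sources used here. From the values, the class Strong starts at a score of 0.5.

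Gene starts were the 5′ ends of gene records of GENCODE mouse release 21 on chromosomes 1 to 19 and X. Distances were counted between 5 kb bins. CTCF sites were 6562 exact matches to the 14-base core consensus on either strand, each assigned to its nearest boundary for direction. Every 10th 50-mer was checked for a second copy in the genome. GC steps used 100 kb on either side. Shares carry 95% exact Clopper-Pearson intervals, differences of shares 95% Newcombe intervals, differences of means normal intervals, those of medians order-statistic intervals for the strongest boundaries with the other median held fixed, and counts per Mb exact Poisson intervals. A count of 0 was given the limit that 3 counts allow. No tests of chance were made. The scripts for overlaps and repeated 50-mers were tested on simulated data. Python 3.11.15, numpy 2.4.6, pandas 2.3.3, scipy 1.17.1, statsmodels 0.14.6 and numba 0.67.0 were used.

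The members, the 18 gene lists and the measures were chosen with earlier results of these data known. Genes were named by rule: the nearest gene of the 25 strongest boundaries with a coding TSS in the bin or adjacent bin, up to 5 genes per list, the 10 highest scores, the 10 strongest with a CTCF match in or beside the bin, the 3 on either side of the threshold, up to 10 with most repeats, the 5 farthest from a coding TSS, the 5 largest GC steps and up to 3 promoters. Boundaries with uneven flanks, pseudogenes, Olfr412 and X are exceptions, named after their values were seen. Alternatives were other score thresholds and windows, the Strong class as comparison, autosomes alone, other motif and repeat settings, and boundaries with repeats left out.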

Additional observations from a re-analysis of the deposited data

How the results depend on the processing

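Differences between the strongest and the remaining boundaries, in percentage points unless said, were recomputed under 90 alternatives, and 70 stayed within the interval of the reported difference. Against the remaining Strong boundaries alone, the difference was 6.74 for a coding TSS within 20 kb, 5.20 for a CTCF match, -7.31 for neither, 0.243 for the GC step, 13.4 for repeats and -14.1 for centres inside genes, and turned to -0.442 for GC content and -0.341 CpG dinucleotides per kb. With a threshold of 2.5 it was 23.4 for a TSS within 20 kb, -4.99 in the bin, 4.73 for a CTCF match, 0.142 for GC content, 0.272 CpG per kb and 14.6 for repeats. With a threshold of 1.5 the repeat difference turned to -2.61. A window of 10 kb gave 6.86 for a TSS and -14.9 for neither, and the relaxed CTCF core, with 140718 sites, 7.71. Coding starts on 1 side only differed by 8.03 with at least 5 starts and by 9.84 with 500 kb on either side. Alternatives for that layout and for the direction of CTCF matches in the bin, and those leaving out boundaries with a bin of over 50% repeated 50-mers within 10 kb, were chosen after seeing the data. The cause of these shifts was not tested. Leaving out boundaries with repeats was not run for the repeat share itself, which it would set to 0. No paired analysis was possible because boundaries came from both replicates pooled, and for the same reason no replicate was left out. Depth and the strain's own sequence limit which boundaries could be scored, and neither is known here.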
